A study of Homo sapiens with 16 samples.

Results

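PABPC1, RACK1 and EIF2A are 3 genes of the translation machinery, described here by the ribosome footprints on their coding sequences in 4 human cancer cell lines with and without the translation inhibitor rocaglamide A (RocA). They were chosen by name as genes of terminal oligopyrimidine (TOP) mRNAs, and they are 3 of the 19485 genes that could be named in the deposited tables. The tables carry transcript identifiers and lengths but no gene names, so a gene was recognised by the order and length of its entries, and the entry with the highest count over all libraries stood for it. All 3 genes passed the filter on low counts, as did 9834 genes in all. The genes were singled out with their values by line and dose known, so their levels and responses are given as a description, with errors and no p-values.

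Each cell line was exposed for 30 min to RocA at 0.3 µM (1 library), to RocA at 3 µM (1 library) or to the solvent DMSO (2 libraries), which gave 16 libraries. NCI-H1650 and NCI-H520 are lung cancer lines, Hs 936.T and A375 are melanoma lines, and the labels give the genetic background of all of them as WT. In ribosome profiling, RNase I digests the mRNA between ribosomes and the protected fragments are sequenced, so the count on a gene follows both the amount of its mRNA and the number of ribosomes on it. These cannot be told apart here, and in bulk lysates neither can fewer cells and fewer footprints per cell. The labels do not say whether the DMSO libraries of a line came from separate cultures, so p-values measure the spread between these libraries and lines, which may be partly technical.

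TOP mRNAs begin with a C at the cap followed by an unbroken run of pyrimidines. Many encode ribosomal proteins, elongation factors and other parts of the translation machinery, and cells switch their translation on and off together through mTORC1 and the RNA-binding protein LARP1. PABPC1 encodes the main cytoplasmic poly(A) binding protein, which coats the tail of mRNAs and contacts eIF4G at the cap. RACK1 is a propeller-shaped protein on the head of the 40S ribosomal subunit and a scaffold for kinases and quality control factors. EIF2A is a single-chain factor that can bring initiator tRNA to the 40S subunit in vitro, and it is distinct from the alpha subunit of eIF2, which the gene EIF2S1 encodes. RocA is a plant compound that clamps the helicases eIF4A and, per the title of the study, DDX3, onto RNA, for eIF4A with a preference for purine runs.

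The RefSeq table of start sites holds RACK1 and EIF2A, and the windows shown here run from 10 bases before the annotated start to 20 bases from it. They are shown because the pyrimidine run at the start defines a TOP mRNA, and they are set beside 5 other TOP genes that rose or fell with RocA. Capitals mark the unbroken run of C and T from the first transcribed base.
RACK1: gcttttctctCTCTCTTTCactgcaaggcg
EIF2A: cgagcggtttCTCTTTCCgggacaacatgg
EIF4B: tcatccgggtCTTTTgcgttctctttccct
EIF3F: cttccgcctcCTTCTTTCTCgacaagatgg
EIF4A2: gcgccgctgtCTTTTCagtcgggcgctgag
BTF3: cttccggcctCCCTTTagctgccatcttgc
EIF2S3: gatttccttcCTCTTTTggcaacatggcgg
The RACK1 window is chr5:181243887-181243916 on the minus strand and the EIF2A window is chr3:150546777-150546806 on the plus strand (RefSeq, GRCh38.p14). RACK1 starts with a run of 9 pyrimidines, 106 bases upstream of its start codon, and EIF2A with a run of 8, only 16 bases upstream of its start codon, which closes the window. A C followed by at least 4 bases that are each C or T, read on the transcribed strand only, stood at the start of 1429 of the 35116 RefSeq promoters (4.07%) and of 16 of the 19 other listed TOP genes with an entry (84.2%). EIF4B, EIF3F and EIF4A2, which rose with RocA, and BTF3 and EIF2S3, which fell, all have such a start. Over the annotated 5' UTR of the entry's transcript, purines made up 45.8% of bases in PABPC1, 44.5% in RACK1 and 48.6% in EIF2A, against a median of 50.9% over 9506 tested genes. The longest purine run was 9 bases in PABPC1, 8 in RACK1 and 7 in EIF2A, against a median of 8, and these UTRs were 1129, 409 and 109 bases long against a median of 172 bases. For RACK1 and EIF2A these GENCODE UTRs are longer than the 106 and 16 bases from the RefSeq start shown. Their purine values therefore do not describe the UTR of an mRNA that begins at that start. PABPC1 has no start site in the RefSeq source used, so its start, its pyrimidine run and its annotated UTR of 1129 bases could not be checked.

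Library totals over the named genes were 87844 to 1071812 footprints with RocA and 992361 to 5914671 with DMSO. A treated library held between 8.80% (NCI-H1650, 3 µM) and 45.8% (NCI-H520, 3 µM) of the mean total of its own DMSO libraries. Values are therefore given in CPM, counts scaled to a common library size after TMM normalisation, so each is relative to the other genes of its library and a shift shared by every gene would not show. The median log2 change over the 9834 tested genes was -0.09 with 0.3 µM and -0.16 with 3 µM. The line labels were checked with marker genes under DMSO. The 9 epithelial markers summed to 14108 to 14948 CPM in NCI-H1650 and 3749 to 3802 CPM in NCI-H520, against 23.8 to 30.8 CPM in Hs 936.T and 286 to 295 CPM in A375. The 10 melanocyte markers summed to 19732 to 20276 CPM in Hs 936.T and only 384 to 459 CPM in A375. NCI-H520, a lung line, carried melanocyte markers as well, 189 CPM at 0.3 µM and 456 CPM at 3 µM with RocA and 681 and 1616 CPM with DMSO. The titles of 2 NCI-H520 libraries (DMSO replicate 2 and 3 µM) name that line while their line label reads NCI-H521, and they were grouped by title.

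PABPC1 lost most of its relative footprints with RocA in every line and at both doses. In NCI-H1650 PABPC1 had 722 and 749 CPM under DMSO, 39.0 CPM at 0.3 µM and 104 CPM at 3 µM. In NCI-H520 PABPC1 had 214 and 242 CPM under DMSO, 79.8 CPM at 0.3 µM and 71.8 CPM at 3 µM. The range under DMSO was wide, and the lung lines marked its ends. In Hs 936.T PABPC1 had 433 and 396 CPM under DMSO, 78.1 CPM at 0.3 µM and 50.1 CPM at 3 µM. In A375 PABPC1 had 336 and 344 CPM under DMSO, 55.4 CPM at 0.3 µM and 23.2 CPM at 3 µM. No RocA library reached the lowest DMSO library: the 8 RocA libraries lay between 23.2 and 104 CPM and the 8 DMSO libraries between 214 and 749 CPM. How many other tested genes separate in this way was not counted. The footprints left at 3 µM were 6.83% of the DMSO mean in A375 and 31.5% in NCI-H520. Over the 4 lines the log2 fold change of PABPC1 was -2.57 ± 0.27 (SE) with 0.3 µM and -2.82 ± 0.31 with 3 µM. Only 1.20% of tested genes had a lower fold change at 0.3 µM and 1.52% at 3 µM. These values rest on 11 to 74 raw footprints per RocA library, against 240 to 2204 per DMSO library.

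RACK1, the gene with the most footprints of the 3, lost less than PABPC1 in every line and dose but NCI-H520 at 3 µM, and in each line lost more at the higher dose. In NCI-H1650 RACK1 had 1370.2 and 1177 CPM under DMSO, 525 CPM at 0.3 µM and 259.7 CPM at 3 µM. In NCI-H520 RACK1 had 3792 and 3514 CPM under DMSO, 2029.9 CPM at 0.3 µM and 1013 CPM at 3 µM. The 2 lung lines again stood apart under DMSO, here with NCI-H520 on top. In Hs 936.T RACK1 had 1969.9 and 2074 CPM under DMSO, 1141 CPM at 0.3 µM and 429 CPM at 3 µM. In A375 RACK1 had 2389 and 2296 CPM under DMSO, 1256 CPM at 0.3 µM and 892 CPM at 3 µM. Within each line the order was DMSO, 0.3 µM, 3 µM from high to low, but across lines the groups overlapped, since NCI-H520 at 0.3 µM stood above NCI-H1650 under DMSO. RACK1 kept 41.2% (NCI-H1650) to 56.4% (Hs 936.T) of its DMSO mean at 0.3 µM and 20.4% (NCI-H1650) to 38.1% (A375) at 3 µM. Over the lines its log2 fold change was -0.95 ± 0.12 (SE) with 0.3 µM and -1.88 ± 0.13 with 3 µM. RACK1 was also lower at 3 than at 0.3 µM, by a log2 difference of -0.93 ± 0.15 (SE) seen in 4 of 4 lines. RACK1 was among the 2.37% of tested genes called lower in that comparison (adjusted threshold of 0.05 in edgeR), where 0.915% were called higher and 3.28% in all, and nothing is read from the call, since its values were known. In the lung lines alone the difference was -0.97 and not called, and over 29 alternatives it ranged from -1.15 to -0.76.

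EIF2A moved the other way. In NCI-H1650 EIF2A had 79.2 and 62.0 CPM under DMSO, 219.9 CPM at 0.3 µM and 129.9 CPM at 3 µM. In NCI-H520 EIF2A had 164 and 165 CPM under DMSO, 428 CPM at 0.3 µM and 426 CPM at 3 µM. The levels in NCI-H1650 were the lowest of the 4 lines in each treatment. In Hs 936.T EIF2A had 173 and 155 CPM under DMSO, 379.8 CPM at 0.3 µM and 487 CPM at 3 µM. In A375 EIF2A had 201 and 180.3 CPM under DMSO, 590.1 CPM at 0.3 µM and 528 CPM at 3 µM. Within each line both RocA libraries stood above both DMSO libraries, and only NCI-H1650 at 3 µM, with 15 raw footprints, overlapped the DMSO libraries of other lines. The rise was 2.32-fold (Hs 936.T) to 3.11-fold (NCI-H1650) at 0.3 µM and 1.84-fold (NCI-H1650) to 2.97-fold (Hs 936.T) at 3 µM. Over the lines the log2 fold change of EIF2A was 1.45 ± 0.11 (SE) with 0.3 µM and 1.43 ± 0.11 with 3 µM. Just 3.86% of tested genes had a higher fold change at 0.3 µM and 4.29% at 3 µM. The doses gave a difference of -0.02 ± 0.13 for EIF2A and of -0.26 ± 0.42 for PABPC1 (SE), both smaller than their standard errors.

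**Figure D1:**
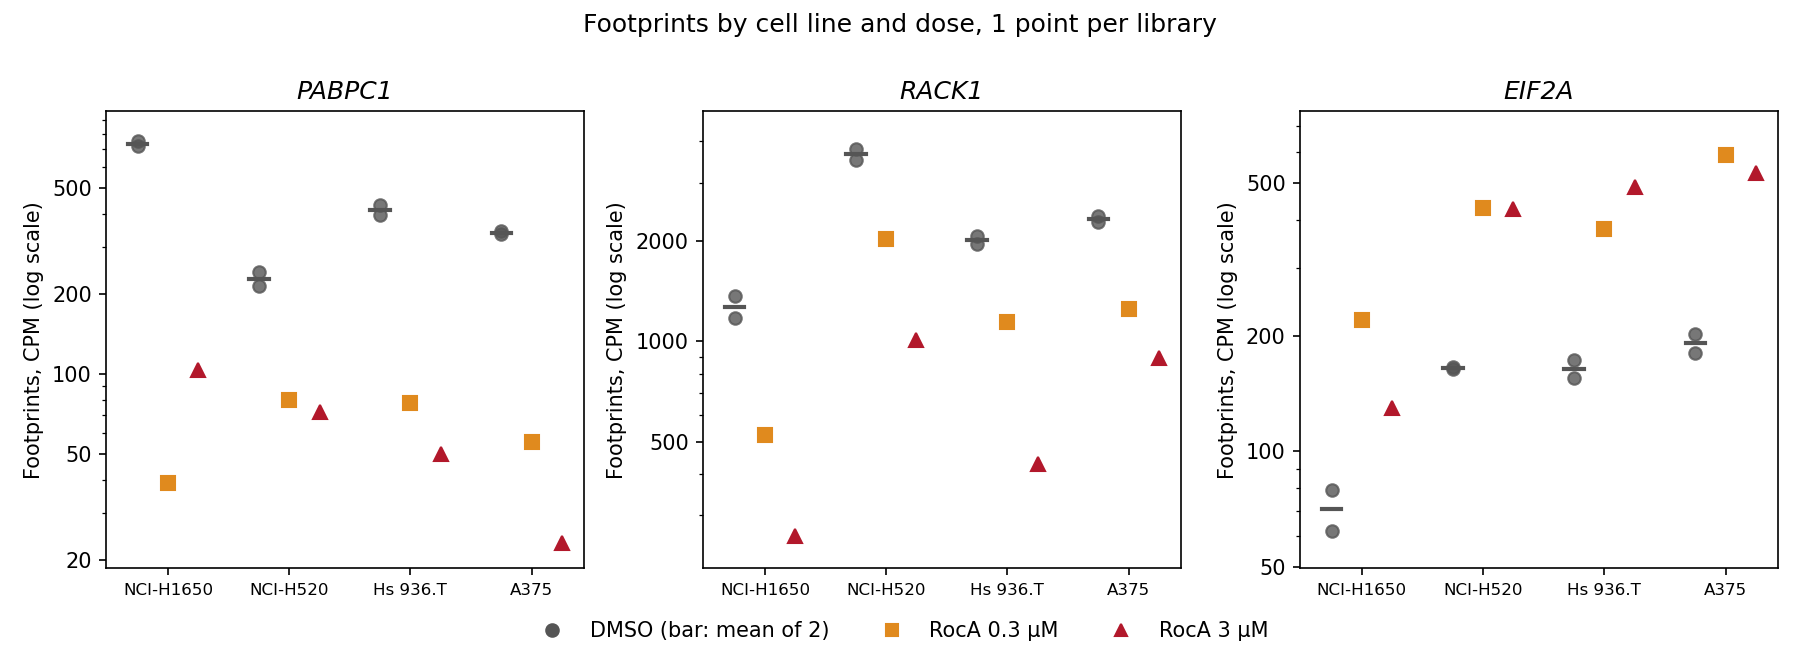
Footprints in CPM (log axis) of PABPC1, RACK1 and EIF2A by cell line. Circles are DMSO libraries with a bar at their mean, squares RocA 0.3 µM and triangles RocA 3 µM, 1 library each; PABPC1 and RACK1 lie below their DMSO libraries in every line and EIF2A above them.

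Beside these values stand the calls over all genes. At 0.3 µM PABPC1 and RACK1 were among the 32.5% of tested genes called lower and EIF2A among the 27.6% called higher; at 3 µM these shares were 32.1% and 25.1%. With library totals in place of TMM the split over all genes was 1953 higher and 4216 lower at 0.3 µM, against 2714 and 3192, and 1878 higher and 3973 lower at 3 µM, against 2467 and 3156. With 60.1% of tested genes called at 0.3 µM and 57.2% at 3 µM, a call by itself says nothing particular about these 3. Leaving out NCI-H520, the lung line with more melanocyte footprints, gave -2.82 for PABPC1, -0.98 for RACK1 and 1.47 for EIF2A at 0.3 µM, and -3.23, -1.84 and 1.50 at 3 µM. The part of the melanocyte footprints in these results was not tested further.

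The rank of the genes within a library changed with the treatment. Per 100 codons counted, RACK1 averaged 306 ± 183 CPM with RocA and 754 ± 300 CPM with DMSO (SD, n = 8 libraries each). PABPC1 averaged 9.99 ± 4.11 CPM per 100 codons with RocA and 68.5 ± 32.3 with DMSO, and EIF2A averaged 69.2 ± 26.9 with RocA and 25.6 ± 8.62 with DMSO. EIF2A thus changed places with PABPC1. The ratio of PABPC1 to EIF2A footprints per codon, which does not depend on the scaling of libraries, was 0.0404 to 0.735 in the 8 RocA libraries and 1.20 to 11.1 in the 8 DMSO libraries. The ratio of RACK1 to EIF2A per codon was 1.65 to 8.86 with RocA and 21.3 to 43.2 with DMSO. Neither ratio overlapped between treatments, as the opposite responses of the genes imply.

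Under DMSO each of the 3 genes had its own order of lines. Log2 differences and their errors come from a fit over the 8 DMSO libraries and 12205 genes. PABPC1 was highest in NCI-H1650 at 736 ± 19.6 CPM (SD, n = 2), then Hs 936.T at 415 ± 26.2, A375 at 339.8 ± 5.90 and NCI-H520 at 228 ± 19.8. The smallest step in that order, Hs 936.T against A375, was a log2 difference of 0.34 ± 0.08 (SE). RACK1 had a different order, with NCI-H520 at 3653 ± 196 CPM (SD, n = 2), A375 at 2342 ± 66.0, Hs 936.T at 2022 ± 73.8 and NCI-H1650 at 1274 ± 137. For RACK1 the melanoma lines lay closest, at -0.16 ± 0.07 (SE) for Hs 936.T against A375. EIF2A was lowest in NCI-H1650 at 70.6 ± 12.2 CPM (SD, n = 2) and lay at 191 ± 14.9 in A375, 165 ± 0.881 in NCI-H520 and 164 ± 12.4 in Hs 936.T. NCI-H1650 was lower than each other line in EIF2A, by log2 differences of -1.26 ± 0.15 to -1.48 ± 0.13, while NCI-H520 against Hs 936.T gave -0.07 ± 0.11, NCI-H520 against A375 -0.23 ± 0.11 and Hs 936.T against A375 -0.16 ± 0.10 (SE). Of all genes, 56.6% to 69.2% were called in either direction between a pair of lines: 59.2% for NCI-H1650 against NCI-H520, 69.2% and 64.0% for NCI-H1650 against Hs 936.T and A375, 59.1% and 56.6% for NCI-H520 against Hs 936.T and A375, and 64.3% for Hs 936.T against A375.

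The size of the RocA response of PABPC1 ranged widely over the lines. Relative to DMSO, the log2 change of PABPC1 with 0.3 µM was -4.20 in NCI-H1650 and -1.50 in NCI-H520, with A375 (-2.59) and Hs 936.T (-2.39) between them. With 3 µM it was -3.81 in A375 and -1.65 in NCI-H520, with Hs 936.T (-3.02) and NCI-H1650 (-2.81) between them. NCI-H520, which had the least PABPC1 under DMSO, thus had the smallest fall at both doses. The F statistic for a difference between lines over both doses was 10.2 for PABPC1, in an edgeR fit where 2.86% of tested genes were called. It was 6.08 without NCI-H520 at 3 µM, one of the libraries labelled NCI-H521, and 7.06 to 16.1 without any other single library. For RACK1 the changes spanned -1.27 (NCI-H1650) to -0.82 (Hs 936.T) at 0.3 µM and -2.28 (NCI-H1650) to -1.39 (A375) at 3 µM, with an F statistic of 2.21. For EIF2A they spanned 1.21 (Hs 936.T) to 1.63 (NCI-H1650) at 0.3 µM and 0.88 (NCI-H1650) to 1.57 (Hs 936.T) at 3 µM, with an F statistic of 0.41.

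The tables list every coding transcript, so a gene has many entries that share footprints and cover different stretches of it. PABPC1 lies on chromosome 8 from 100685816 to 100722809 on the minus strand, RACK1 on chromosome 5 from 181236909 to 181248096 on the minus strand, and EIF2A on chromosome 3 from 150546678 to 150584242 on the plus strand (GENCODE 29, GRCh38). The entries used follow the coding exons of 1 transcript each, 14 in PABPC1, 8 in RACK1 and 14 in EIF2A. PABPC1 had 20 entries of 28 to 627 codons, RACK1 23 of 30 to 312 codons and EIF2A 10 of 31 to 576 codons. The entry used for PABPC1 (627 codons) and for EIF2A (576 codons) was also the longest of the gene, while for RACK1 the entry of 308 codons held more footprints than the longest, of 312 codons. The mean change over the 4 lines was below 0 in all 20 PABPC1 entries and all 23 RACK1 entries and above 0 in all 10 EIF2A entries, at both doses. Along the coding sequence the entries were not alike. In PABPC1 the entry of 28 codons that begins at the start codon changed by -0.32 at 0.3 µM and -0.16 at 3 µM, and that of 34 codons by -0.66 and -0.59. Over the lines the entry of 28 codons ran from -1.71 to 1.74 at 0.3 µM and from -1.09 to 0.56 at 3 µM. It rests on 2 to 9 footprints per RocA library. The highest line values of the start entries of 34, 51 and 65 codons at 0.3 µM were also above 0, at 1.31, 0.91 and 0.76. The PABPC1 entries of 51 to 119 codons from the start stood between -1.14 and -2.22, and the entry of 160 codons at the end of the coding sequence at -3.19 and -2.94. In EIF2A the entry of 50 codons over the start, a transcript annotated for nonsense-mediated decay, changed by 2.58 at 0.3 µM and 2.60 at 3 µM, against 1.35 and 1.08 for the entry of 307 codons over the end. RACK1 was flatter, at -0.45 and -1.55 for its first 30 codons and -1.10 and -2.24 for the entry of 129 codons over its end. Its entries of 92 and 73 codons, which begin further along, changed by -1.16 and -1.91 and by -1.05 and -1.67. In these means over the lines, the entry over the start of each of the 3 genes thus fell less, or rose more, than those over the end. For RACK1 at 3 µM the gap to the entry of 73 codons was small. The ends of the range were single entries within PABPC1, from -3.65 (98 codons) to -0.32 (28 codons) at 0.3 µM.

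**Figure D2:**
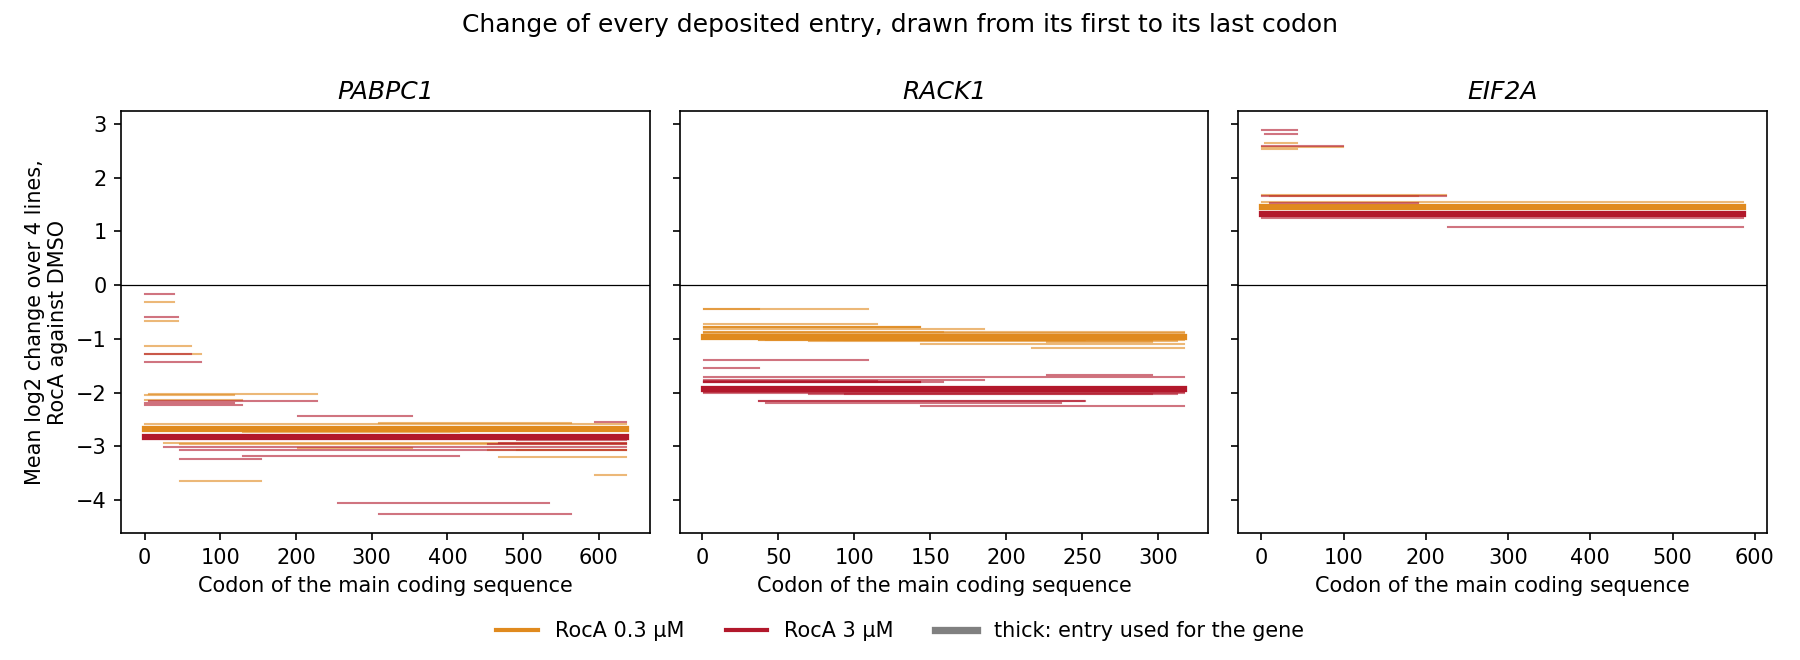
Mean log2 change over the 4 lines, RocA against DMSO, for every entry of PABPC1, RACK1 and EIF2A, drawn as a line from the first to the last codon of the main coding sequence that it covers. The thick lines are the entries used for the genes. Only the shortest entries at the start lie above the rest in PABPC1 and EIF2A, and by less in RACK1.

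The share of a gene's footprints that fell in its entry nearest the start puts this on a scale within each library. For PABPC1 the share in its first 28 codons counted was 2.70% to 30.0% in the 8 RocA libraries (median 16.9%) and 2.08% to 3.66% in the 8 DMSO libraries (median 2.48%). The RocA shares of PABPC1 rest on 2 to 9 footprints each: that of Hs 936.T at 0.3 µM, 2.70%, has a 95% interval of 0.329% to 9.42%, and that of NCI-H520 at 0.3 µM, 30.0%, one of 14.7% to 49.4% (exact binomial, counting error only). Only that Hs 936.T library overlapped the DMSO libraries. For EIF2A the share of an entry of 50 codons at the start was 17.8% to 27.9% with RocA (median 25.5%) and 8.16% to 11.4% with DMSO (median 9.81%), with no overlap. For RACK1 the share of its first 30 codons was 4.53% to 10.8% with RocA (median 5.97%) and 3.40% to 6.16% with DMSO (median 4.65%), and the groups overlapped. Averaged over the lines, the share was higher with RocA by 14.6 percentage points in PABPC1 (4 of 4 lines), 14.4 in EIF2A (4 of 4 lines) and 1.77 in RACK1 (3 of 4 lines). By an exact permutation test of treatment labels within lines, 77.3% of the 585 genes with a suitable entry were called higher and 0.513% lower, and nothing is read from the calls of the 3 genes among them. The median change over the 585 genes was 17.9 points (quartiles 9.79 and 26.4), and 97.8% of them had a higher share with RocA. A higher share at the start was thus the common pattern in these libraries, and RACK1 lay below the lower quartile. How many of the 585 genes had no overlap between treatments, like EIF2A, was not counted.

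**Figure D3:**
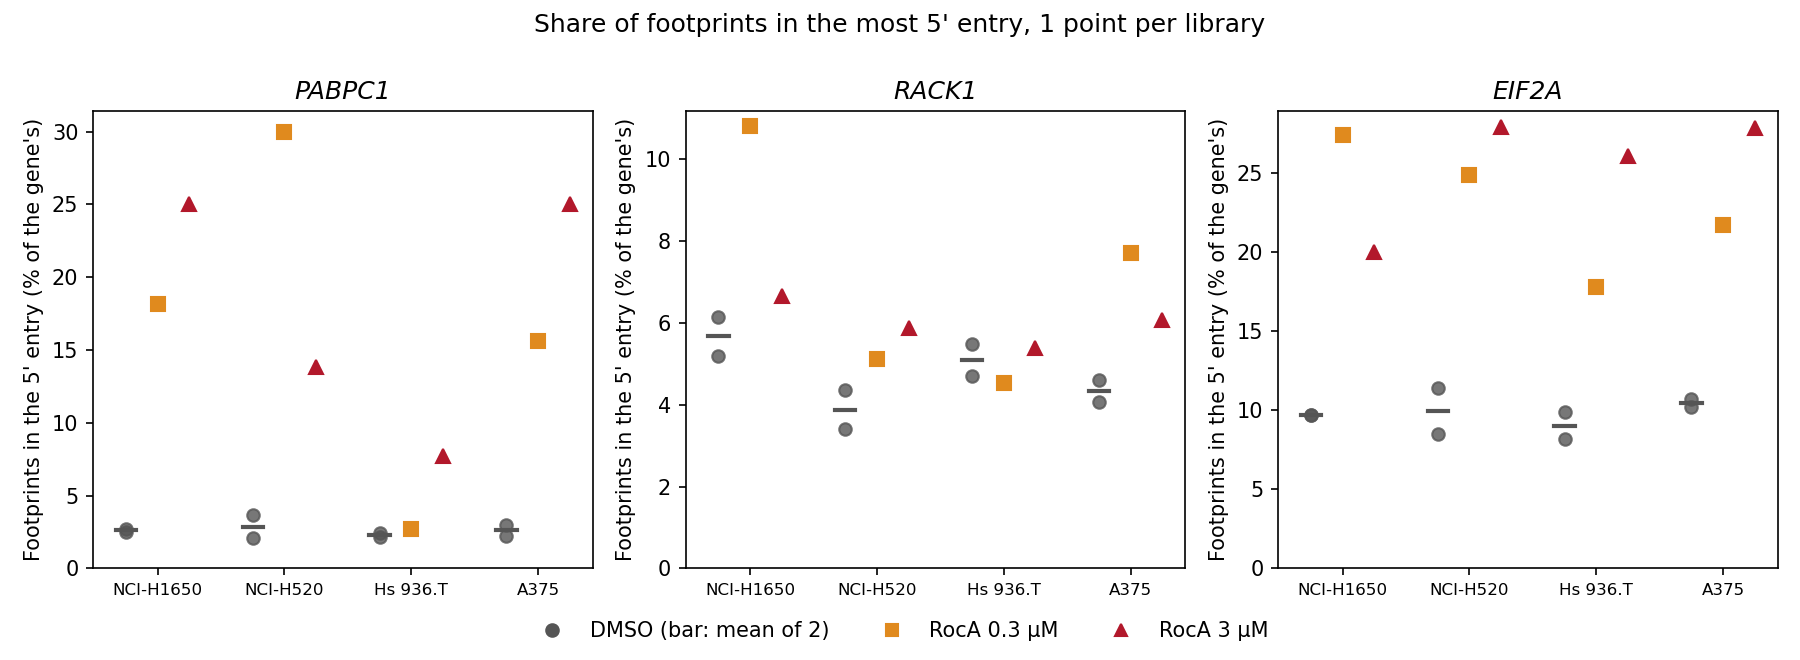
Share of footprints in the entry nearest the start codon, in percent of the footprints of the gene's own entry, by cell line; circles are DMSO libraries with a bar at their mean, squares RocA 0.3 µM and triangles RocA 3 µM. With RocA the share of EIF2A was above every DMSO library, and RACK1 stayed between 4.53% and 10.8%; each panel has its own axis from 0.

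The other TOP mRNAs spread over both directions, as these 3 did. A list of 30 further genes with TOP mRNAs, which leaves out the RPS and RPL ribosomal protein genes and was chosen with earlier results of these data known, had 29 tested members. At 0.3 µM 15 of the 29 rose, 9 fell and 5 were not called, with a median log2 change of 0.38 against -0.09 over all tested genes, of which 27.6% rose and 32.5% fell. At 3 µM 15 rose, 10 fell and 4 were not called, with a median of 0.26 against -0.16 over all tested genes, of which 25.1% rose and 32.1% fell. With library totals in place of TMM the split was 14 higher and 12 lower at 0.3 µM and 11 higher and 13 lower at 3 µM. Of all 9834 tested genes library totals gave 1953 higher and 4216 lower at 0.3 µM, and 1878 higher and 3973 lower at 3 µM. EIF4B, an activator of eIF4A, rose by 1.67 ± 0.10 (SE) at 0.3 µM and 1.73 ± 0.10 at 3 µM. EIF3F, a subunit of the initiation factor eIF3, rose by 1.68 ± 0.10 at 0.3 µM and 1.37 ± 0.11 at 3 µM. EIF4A2, a paralog of the main eIF4A gene, rose by 1.01 ± 0.11 at 0.3 µM and 1.43 ± 0.11 at 3 µM. EIF2A stood close to the top of the list, with 2 of the 29 genes above it at each dose. At the other end, PABPC4, a second cytoplasmic poly(A) binding protein, fell with log2 changes of -2.95 ± 0.20 at 0.3 µM and -2.37 ± 0.20 at 3 µM, next to PABPC1. BTF3, which binds nascent chains, fell with -1.37 ± 0.12 at 0.3 µM and -1.31 ± 0.12 at 3 µM. EIF2S3, the gamma subunit of eIF2, fell with -1.08 ± 0.11 at 0.3 µM and -1.40 ± 0.13 at 3 µM. RACK1 at 3 µM lay below every listed gene but PABPC4. Between 3 and 0.3 µM none of the 29 was called in edgeR with TMM, where only 3.28% of all tested genes were called. With DESeq2 size factors 1 was called higher, beside 114 of all tested genes. With library totals 2 were called higher, beside 143 of all tested genes. More broadly, 440 tested genes start with the tract in RefSeq. Of these 141 rose and 123 fell at 0.3 µM (median 0.04), and 136 rose and 138 fell at 3 µM (median -0.04). Of all tested genes 27.6% rose and 32.5% fell at 0.3 µM (median -0.09), and 25.1% rose and 32.1% fell at 3 µM (median -0.16). The order of rises and falls among tract genes at 0.3 µM was not kept at 3 µM, and these counts were made with TMM alone. Only 7743 of the tested genes have a start in the RefSeq source. Whether tract genes differ from other genes was not tested.

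**Figure D4:**
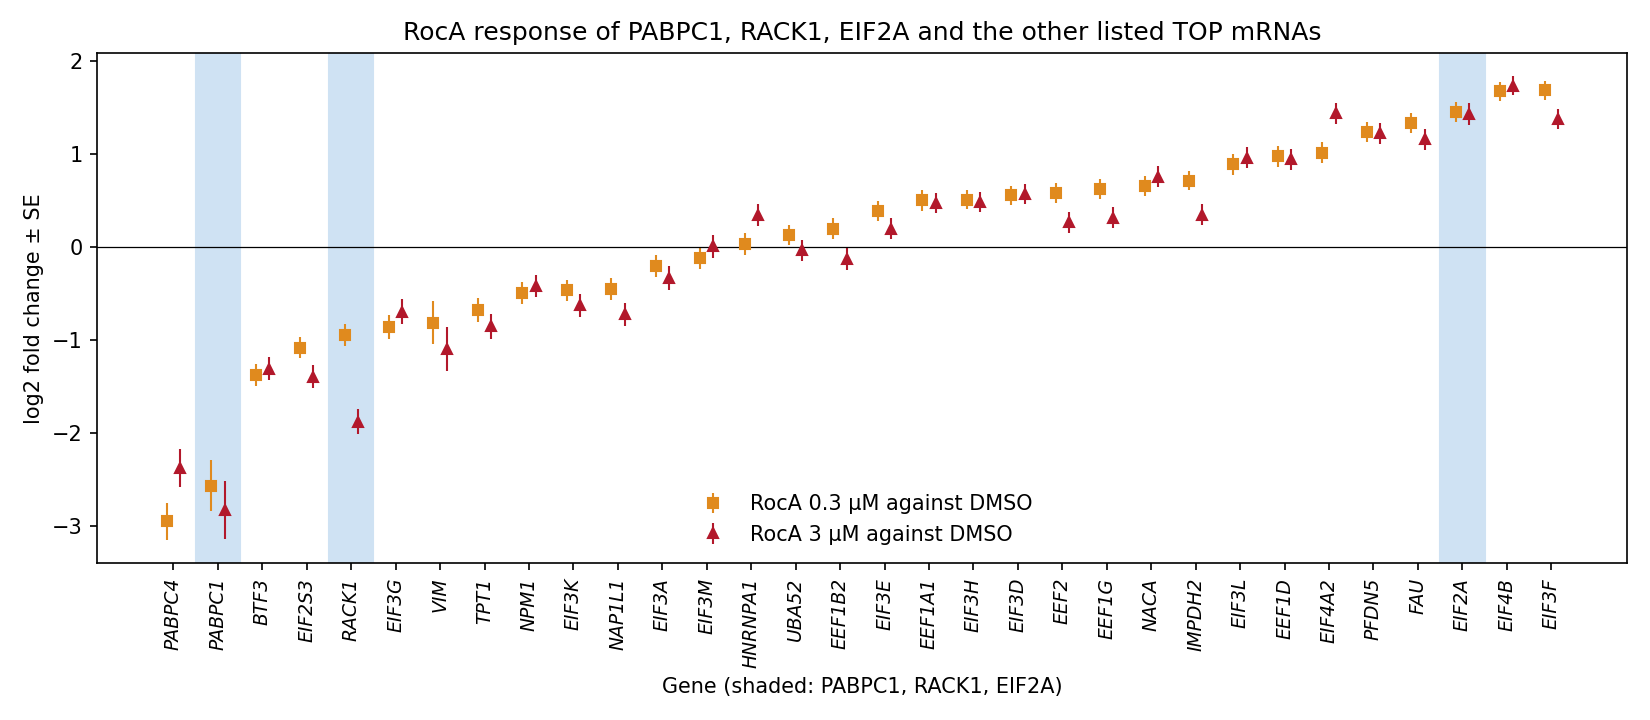
Log2 fold change with its SE (bars) against DMSO for PABPC1, RACK1, EIF2A (shaded) and 29 other listed TOP genes, sorted by the value at 0.3 µM; squares are RocA 0.3 µM and triangles RocA 3 µM. PABPC1 lies next to PABPC4 at the low end, EIF2A among the 3 highest at 0.3 µM, and RACK1 is the gene with the widest gap between doses among these 3.

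Genes that work with each of the 3 were counted from lists of their partners. Of 16 tested poly(A) binding proteins and partners, 11 fell, 1 rose and 4 were not called at 0.3 µM, and 12 fell, 1 rose and 3 were not called at 3 µM. Their median change was -1.56 at 0.3 µM and -1.74 at 3 µM; of all tested genes 32.5% fell and 27.6% rose at 0.3 µM, and 32.1% fell and 25.1% rose at 3 µM. Beside PABPC4, PABPC3 fell, with -2.60 ± 0.23 (SE) at 0.3 µM and -2.76 ± 0.28 at 3 µM. PABPC3 is an intronless copy nearly identical to PABPC1, and the labels do not say how reads matching both were assigned, so its value cannot be told apart from that of PABPC1. TOB2, which recruits deadenylases to poly(A) binding protein, fell at 0.3 µM (-2.59 ± 0.48) and at 3 µM (-2.50 ± 0.58). The nuclear poly(A) binding protein gene PABPN1 was the single member that rose, by 0.88 ± 0.13 at 0.3 µM and 1.18 ± 0.13 at 3 µM.

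Neighbours of RACK1 on the 40S subunit and its partners did not move as one. Of 16 tested, 5 rose, 3 fell and 8 were not called at 0.3 µM, and 6 rose, 5 fell and 5 were not called at 3 µM. With TMM 27.6% of all tested genes rose and 32.5% fell at 0.3 µM, and 25.1% rose and 32.1% fell at 3 µM. The counts moved with the scaling, as did those of all genes. With library totals 3 of the 16 rose and 7 fell at 0.3 µM, and 6 rose and 7 fell at 3 µM. Of all 9834 tested genes 1953 then rose and 4216 fell at 0.3 µM, and 1878 rose and 3973 fell at 3 µM. The median of the list at 0.3 µM was -0.11 with library totals, against -0.36 over all tested genes. With TMM these medians were 0.17 and -0.09. EIF3C, a subunit of eIF3, rose by 1.46 ± 0.10 (SE) at 0.3 µM and 1.27 ± 0.10 at 3 µM, and its near-identical copy EIF3CL shares its reads. RPS2, a 40S protein, rose by 1.06 ± 0.11 at 0.3 µM and 0.59 ± 0.11 at 3 µM. It was lower at 3 than at 0.3 µM by a log2 difference of -0.47 ± 0.13. EIF4E, the cap-binding protein, had 0.14 ± 0.13 at 0.3 µM, not called, and rose by 0.64 ± 0.13 at 3 µM. SRC, a kinase that binds RACK1, fell at 0.3 µM (-1.59 ± 0.42) and at 3 µM (-2.62 ± 0.58). EIF6, which keeps the 60S subunit from joining, fell at 0.3 µM (-0.68 ± 0.12) and at 3 µM (-0.61 ± 0.13). PRKCA, a protein kinase C, had -0.58 ± 0.30 at 0.3 µM, not called, and fell at 3 µM (-0.87 ± 0.36).

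Of 19 factors that deliver or control initiator tRNA beside EIF2A, 6 rose, 11 fell and 2 were not called at 0.3 µM, and 5 rose, 11 fell and 3 were not called at 3 µM. Their median change was -0.62 at 0.3 µM and -0.76 at 3 µM, beside 27.6% of all tested genes that rose and 32.5% that fell at 0.3 µM, and 25.1% and 32.1% at 3 µM. EIF2D, another factor that can place initiator tRNA without eIF2, rose by 1.40 ± 0.15 (SE) at 0.3 µM and 1.51 ± 0.17 at 3 µM. The eIF2 kinase EIF2AK4 rose by 1.21 ± 0.20 at 0.3 µM and had 0.40 ± 0.27 at 3 µM, not called. The eIF2 kinase EIF2AK1 rose by 0.91 ± 0.15 at 0.3 µM and 1.07 ± 0.16 at 3 µM. The other listed eIF2 kinases went the other way. EIF2AK2 had -0.49 ± 0.16 at 0.3 µM and -0.35 ± 0.19 at 3 µM, called at 0.3 µM alone. EIF2AK3 had -0.45 ± 0.36 and -1.34 ± 0.52, called at 3 µM alone. EIF5, which triggers GTP hydrolysis by eIF2, fell, with -2.31 ± 0.20 at 0.3 µM and -2.52 ± 0.23 at 3 µM. EIF1AX, which helps the 40S subunit scan, fell at 0.3 µM (-1.34 ± 0.15) and at 3 µM (-1.05 ± 0.16). EIF2B3, a subunit of the exchange factor of eIF2, fell at 0.3 µM (-1.05 ± 0.17) and at 3 µM (-1.72 ± 0.21). EIF2S1, the alpha subunit of eIF2 whose name is often mixed with that of EIF2A, was among those that fell at both doses, with -0.57 ± 0.14 at 3 µM, opposite in sign to EIF2A.

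Of 17 tested regulators of TOP mRNAs and of mTORC1, 2 rose, 8 fell and 7 were not called at 0.3 µM, and 4 rose, 11 fell and 2 were not called at 3 µM. With DESeq2 size factors or library totals 2 of the 17 rose at 3 µM, where 2361 and 1878 of all 9834 tested genes rose. Of all tested genes 27.6% rose and 32.5% fell at 0.3 µM, and 25.1% rose and 32.1% fell at 3 µM. LARP1 itself had -0.19 ± 0.13 at 0.3 µM and -0.25 ± 0.15 at 3 µM (SE), neither called. TIA1, an RNA-binding protein of stress granules, fell, with -2.36 ± 0.26 at 0.3 µM and -2.26 ± 0.29 at 3 µM. LARP4, a La-related protein that binds poly(A), fell at 0.3 µM (-1.72 ± 0.16) and at 3 µM (-2.29 ± 0.20). RPTOR, the mTORC1 subunit that binds substrates, fell at 0.3 µM (-1.78 ± 0.28) and at 3 µM (-1.37 ± 0.30). The mTORC1 inhibitor AKT1S1 rose by 1.08 ± 0.19 at 0.3 µM and 1.27 ± 0.21 at 3 µM. TSC2, which restrains mTORC1, rose by 0.84 ± 0.17 at 0.3 µM and had 0.34 ± 0.20 at 3 µM, not called. RPS6KB1, a kinase that mTORC1 activates, had 0.45 ± 0.22 at 0.3 µM, not called, and rose by 0.56 ± 0.25 at 3 µM. MTOR and MLST8 were lower at 3 than at 0.3 µM, by log2 differences of -1.04 ± 0.24 and -1.33 ± 0.37.

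The genes with the response most like each of the 3 were found by the root mean square difference of the 8 log2 changes (4 lines, 2 doses) among 3417 genes of at least 50 CPM on average under DMSO. Nearest to PABPC1 were PABPC3 at 0.29, ETS1 at 0.60, NAA50 at 0.73, H2AFY at 0.75 and AP2M1 at 0.77. Genes near RACK1 included ATP5MC1 at 0.32, EIF2B3 at 0.33 and SCAMP2 at 0.34. EIF2A had closer company, with RRM2 at 0.13, EIF3C at 0.17, ATP5F1C at 0.17, EIF3CL at 0.18 and PGLS at 0.18. Among the 3 genes themselves the difference was 1.62 between RACK1 and PABPC1, 2.89 between RACK1 and EIF2A and 4.25 between PABPC1 and EIF2A.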

How the data were processed

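The deposited tables hold raw footprint counts of the authors per transcript entry (182398 entries, 93916 coding) and the number of codons counted, which is the coding length less 10. Per the submitters' processing notes, CASAVA 1.8, Bowtie2 2.1.0 and TopHat2 2.0.9 were used with hg38; the counting rule and annotation are not given in the sources used here. Entries were named by aligning the order of their codon counts to GENCODE 29, whose coordinates are also GRCh38. This placed 97.7% of coding entries and named 19485 of 19927 coding genes; with altered lengths 84 of 1992 genes (4.22%) were named, against 1953 with true lengths. An entry of 121 codons next to PABPC1 belongs to YWHAZ by this alignment and was not used for PABPC1. Genes with counts identical to another gene (49) were left out.

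Tests used edgeR 4.0.16 under R 4.3.3 (TMM, filterByExpr with a minimum count of 10, robust quasi-likelihood, 2-sided), and a gene was called where its Benjamini-Hochberg adjusted p lay below 0.05. DESeq2 1.42.0 was an alternative. Naming and shares were computed with SciPy 1.17.1, NumPy 2.4.6 and pandas 2.3.3 (Python 3.11.15). The dose fit had terms for line and dose over 16 libraries, with the 4 lines as replicates. Changes in single lines use log2 CPM with a prior count of 2. The share at the start used, per gene, the shortest suitable entry of 20 to 70 codons that begins at the same base as the gene's entry. A suitable entry had up to 30% of the length of the gene's entry and at least 100 footprints. At least 80% of its bases had the same position in the gene's coding sequence. Genes whose own entry had no footprint in some library were left out. Scripts were tested on simulated data. DMSO replicate libraries differed by more than counting error (chi-square per degree of freedom 1.52 to 2.55), and same-numbered DMSO libraries did not deviate together (correlations -0.02 to 0.07). The genes, lists and tests were chosen with earlier results of these data known. From each list up to 2 called rises and 2 called falls per dose, of at least 10 CPM under DMSO, are named. EIF2S1, LARP1, EIF2AK2 and EIF2AK3 were added after their values were seen. Some genes close to RACK1 in response are not reported here.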

Additional observations from a re-analysis of the deposited data

Results flagged for a closer look

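The RocA response of PABPC1 varied between the 4 lines, with an F statistic of 10.2 for a difference between lines in edgeR. PABPC1 was chosen with these values known, so this is a description and not independent evidence. The fall was smallest in NCI-H520 at both doses. NCI-H520 is also the lung line with more melanocyte footprints and the line with 2 libraries labelled NCI-H521. The part of these in the difference was not tested beyond leaving out libraries, and without NCI-H520 at 3 µM the F statistic was 6.08.

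The log2 change of RACK1 at 0.3 µM in NCI-H1650, -1.27, lay apart from the other 3 lines by Dixon's criterion at 95%. Of 12 such groups of 4 lines, this was the single one past the criterion, and chance passes about 1 in 20. RACK1 was chosen with these values known, and each rests on 1 RocA library, so this is a description and nothing is read from it.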

How the results depend on the processing

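Against DMSO, PABPC1 and RACK1 stayed lower, EIF2A higher and all 3 called at both doses under each of 29 alternatives. Nothing is read from these calls, since the values of the 3 genes were known. The ranges at 0.3 µM were -2.83 to -2.25 for PABPC1, -1.22 to -0.85 for RACK1 and 1.17 to 1.56 for EIF2A. At 3 µM they were -3.34 to -2.15, -2.11 to -1.74 and 1.19 to 1.55. Library totals in place of TMM moved the median of all genes to -0.36 at 0.3 µM and -0.39 at 3 µM; in lines thinned to equal depth the medians were -0.03 and -0.05 and PABPC1 stood at -2.38 and -2.78. Counts of called genes at 3 µM against DMSO were 1607 higher and 1950 lower in the lung lines alone, against 2467 and 3156. The comparison of 3 with 0.3 µM was the least stable: 90 genes were called higher and 233 lower, against 143 higher with library totals, 136 higher with no filter, 43 and 110 without the libraries labelled NCI-H521, 169 higher without NCI-H1650, 51 and 116 without NCI-H520, 8 and 31 without Hs 936.T, 54 and 152 without A375, 1 and 15 in the lung lines and 137 lower in the melanoma lines; leaving out 1 library gave 22 to 129 and 67 to 261. In that comparison EIF2A, near 0, changed sign with DESeq2 size factors (0.015), library totals (0.027), the DESeq2 test (0.016), thinning (0.051), without the libraries labelled NCI-H521 (0.030), without NCI-H1650 (0.084), NCI-H520 (0.025) or A375 (0.042) and in the melanoma lines (0.12), and over single libraries left out it ranged from -0.13 to 0.064. PABPC1 changed sign there without A375 (0.016) and in the lung lines (0.56), and ranged from -0.66 to 0.033 over libraries left out. None of these sign changes was called; the cause was not tested. Genes called as differing in response between lines numbered 281, and 176 to 488 with 1 library left out. Under DMSO, EIF2A in NCI-H520 against Hs 936.T ranged from -0.15 to 0.024 over libraries left out. The higher 5' share of RACK1 was not called without NCI-H1650 (1.34 points), NCI-H520 (1.83) or A375 (1.51) or at 0.3 µM alone (2.29), and ranged from 1.25 to 2.29 over libraries left out; its alternatives were chosen after seeing the data.

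The replicate numbers do not pair the DMSO libraries, and with the replicate block 45087 calls were made over the 6 pairs of lines, against 45455 without it; it changed no call of the 3 genes. A planned ratio of the highest to the longest entry of PABPC1 was not run, since they are the same entry. Chosen after seeing the data, 2 YWHAZ entries with the length of a PABPC1 entry were read as PABPC1: that of 121 codons gave -1.66 and -1.92 against DMSO, and that of 127 codons -0.25 and 0.14, with 0.39 between doses. PABPC1 rests on 11 to 74 footprints per RocA library.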
